A study of Homo sapiens with 2 samples.

Results

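The genes described are the members of the SLC25 family of mitochondrial carriers, chosen as every row of the deposited count table whose symbol is SLC25A followed by a number. This gave 48 genes of 54261 in the table, and 39 of them reached a CPM (the usual depth-scaled read count, with TMM factors) of 1 or more in at least 1 library. Those 39 are called measured, as are 12925 genes of the whole table. The libraries came from RKO, a human colorectal carcinoma cell line. In 1 library the cells carry the genotype label WT and were transfected with a control siRNA, siNC. In the other they carry the label HNRNPM knockdown and were transfected with siHNRNPM, an siRNA against the RNA-binding protein HNRNPM. The siRNA sequences, the dose and the time after transfection are not given in the sources used here. The comparison asks how the transcripts of these carriers differ when HNRNPM is knocked down.

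SLC25 proteins are encoded in the nucleus, made in the cytosol and for the most part inserted into the inner mitochondrial membrane. There they exchange nucleotides, phosphate, carboxylates, amino acids and cofactors between the cytosol and the matrix, so that oxidative phosphorylation, the urea cycle, heme synthesis and one-carbon metabolism all depend on them. A few members sit in other membranes: SLC25A17 in peroxisomes and SLC25A46 in the outer mitochondrial membrane.

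No difference here has a replicate check, since each group is 1 library. Each log2 ratio (siHNRNPM over control) is given with a 95% counting interval, taken by the exact Clopper-Pearson method from how its reads divide between the libraries, and covering counting error only. A gene is called higher or lower where that interval excludes a ratio of 1. In bulk RNA, fewer cells expressing a gene and less RNA per cell cannot be told apart. Reads in genes numbered 13056118 for siHNRNPM and 19931360 for the control. HNRNPM itself had 79.6 CPM after siHNRNPM and 144 CPM in the control, or 55.2% of its control value (51.3% to 59.2%), the direction the labels give. Of 9 colon epithelial marker genes, 4 reached a CPM of 1 in each library (EPCAM, KRT8, KRT18 and CDX2), CDH1, KRT19 and VIL1 had at most 10 reads, and CDX1 and KRT20 had 0 in both. The summed level of these markers was 87.3 CPM for siHNRNPM and 79.6 CPM for the control, with log2 ratios of 0.36 (0.04 to 0.68) for EPCAM, 0.32 (0.14 to 0.50) for KRT8, 0.06 (-0.12 to 0.24) for KRT18 and -0.40 (-0.75 to -0.05) for CDX2. Of 5 markers of immune, fibroblast, endothelial and muscle cells, PTPRC, PECAM1 and DES had at most 2 reads, and the summed level of the 5 was 2.75 and 1.16 CPM. The fibroblast markers COL1A1 and COL1A2 were both higher, COL1A1 with 21 and 13 reads or 1.60 and 0.654 CPM and COL1A2 with 14 and 8 reads or 1.07 and 0.402 CPM. Both passed the filter through the siHNRNPM library only, with wide intervals of the log2 ratio (0.23 to 2.42 and 0.06 to 2.87). The part of these markers in the results was not tested.

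The family as a whole differed little between the libraries. Its 48 genes took 36283 reads in the siHNRNPM library and 56323 in the control library, 0.278% and 0.283% of all reads in genes. Of the 39 measured members, 10 were called higher (25.6%), 9 were called lower (23.1%) and 20 were not called. Over all measured genes 22.0% were higher and 26.1% lower, so the members' shares lay near the background in both directions. With upper-quartile scaling the members gave 11 and 7, and all genes 25.8% and 22.2%. The members' median log2 ratio was -0.00074, with quartiles of -0.15 and 0.17, against a median of -0.01 and quartiles of -0.21 and 0.18 for all measured genes. An absolute log2 ratio under 0.5 was seen for 33 of the 39 (84.6%) and for 84.0% of all measured genes. At least 2-fold differences were found for 1 member, SLC25A26, higher in the siHNRNPM library, and for 0 in the other direction. The background of such calls was 2.45% higher and 1.49% lower.

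Calls on counting intervals are more frequent among genes with many reads. Of the 21 members with 1000 or more reads over both libraries, 5 were higher and 6 lower, 23.8% and 28.6%. For all measured genes of that depth the shares were 25.4% and 34.5%. Of the 18 shallower members, 5 were higher (27.8%) and 3 lower (16.7%), against 18.6% and 17.3% of all measured genes under 1000 reads. The interval reached 0.05 on the log2 scale to each side at its narrowest, for SLC25A3, and 0.17 in the middle of the family, so that smaller differences were not detectable at this depth for many members.

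**Figure D1:**
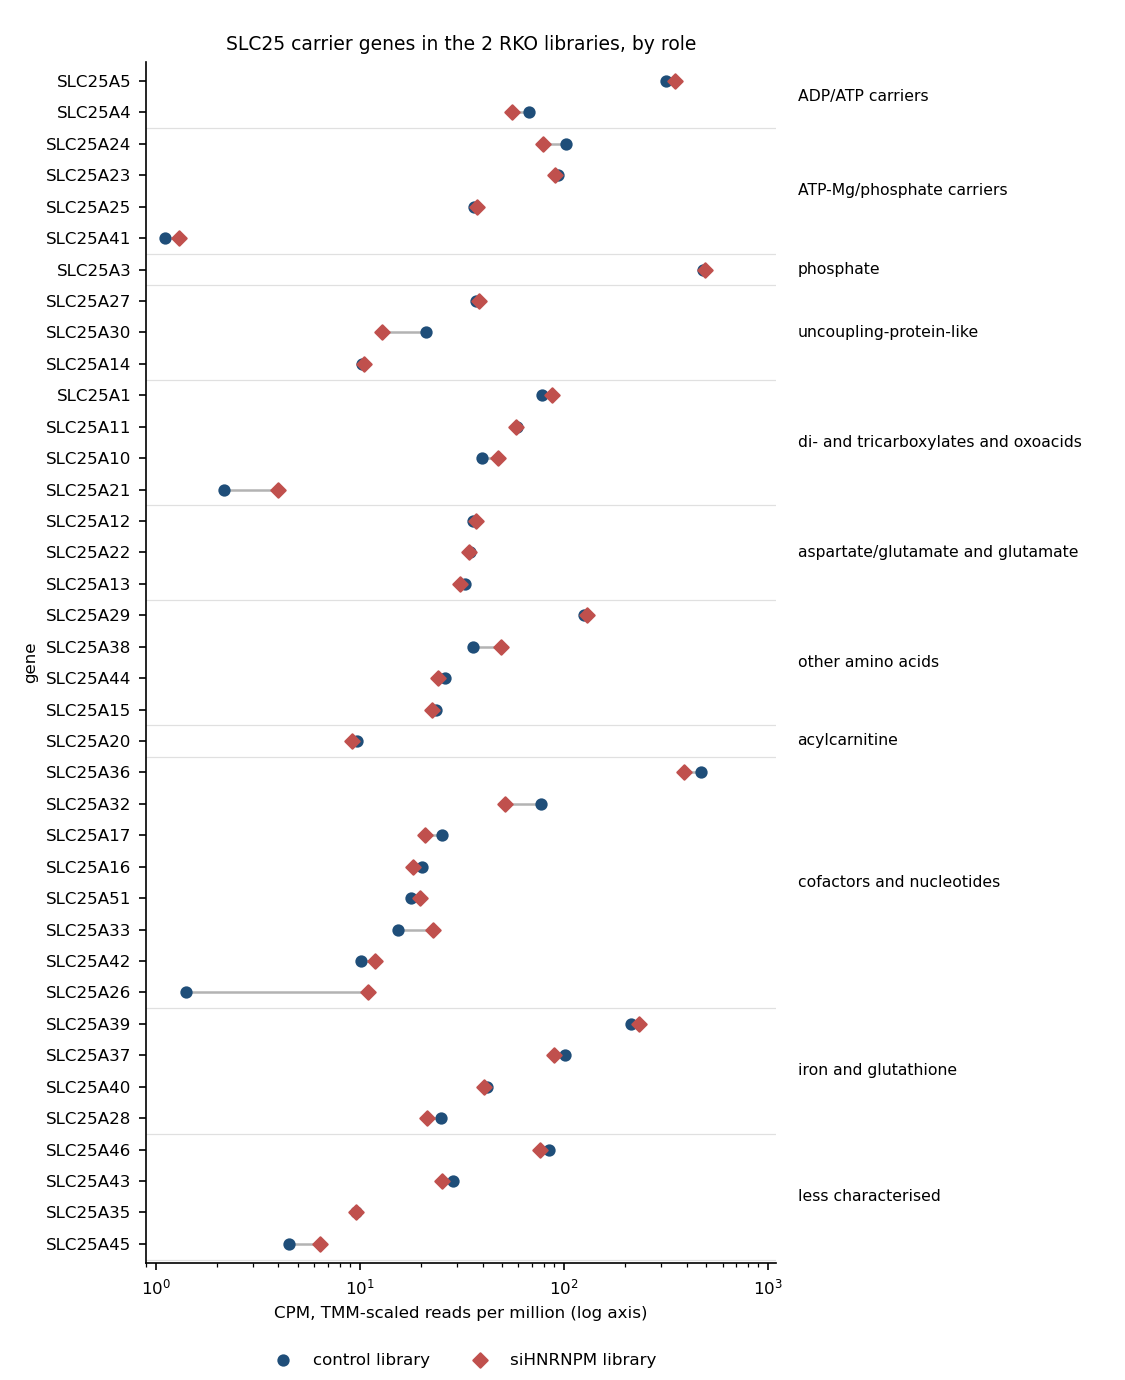
CPM (log axis) of 38 of the measured SLC25 genes in the control library (circles) and the siHNRNPM library (diamonds), 1 library each, grouped by the role of the carrier. Most pairs of points nearly coincide, while SLC25A26 (1.41 against 10.9 CPM), SLC25A21, SLC25A30, SLC25A32 and SLC25A33 stand apart.

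Per kilobase of transcript, the order of the members was nearly the same in both libraries. On this scale, RPKM (CPM per kilobase of the principal transcript of GENCODE 29), the phosphate carrier gene SLC25A3 was first with 288 RPKM in the control library and 295 in the siHNRNPM library. The ADP/ATP carrier gene SLC25A5 followed with 249 and 276 RPKM, then SLC25A39 with 133 and 145, SLC25A36 with 101 and 84.1, SLC25A29 with 53.0 and 54.4 and SLC25A1 with 47.2 and 53.2. The same 6 genes held the first 6 places in the same order in each library, and 9 of the first 10 were shared. SLC25A3, SLC25A5 and SLC25A36 together took 44.8% of the family's reads in the control library and 44.6% in the siHNRNPM library. At the other end of the measured members were SLC25A26, SLC25A41 and SLC25A21, with 0.527, 0.722 and 0.777 RPKM in the control library. Levels per kilobase depend on the transcript taken for the length.

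The ADP/ATP carriers exchange cytosolic ADP for matrix ATP and are encoded by SLC25A4, SLC25A5, SLC25A6 and the testis-enriched SLC25A31. SLC25A5 (chromosome X, 119468400 to 119471319) had 4594 reads or 351 CPM in the siHNRNPM library and 6298 reads or 317 CPM in the control library. It was 1.11-fold higher (log2 ratio 0.15, 0.09 to 0.20). SLC25A4 (chromosome 4, 185143241 to 185150382), the form prominent in heart and muscle, had 726 reads or 55.5 CPM against 1339 reads or 67.3 CPM. It was lower, at 82.4% of the control level (log2 ratio -0.28, -0.41 to -0.15). The gap between these 2 genes was 0.43 on the log2 scale (0.29 to 0.57), and SLC25A5 stood 22.1-fold above SLC25A4 per kilobase in the siHNRNPM library and 16.4-fold in the control library. These folds depend on the transcript lengths taken, 1274 bases for SLC25A5 and 4440 for SLC25A4, and are smaller by CPM. SLC25A31 had 2 and 3 reads, below the filter.

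SLC25A6 was listed at 0 reads in both libraries, although the gene is broadly expressed in human tissues. It lies in the region shared by the sex chromosomes, at 1386152 to 1392724 of both X and Y in GRCh38, and each of the 2013 words of 50 bases in its transcript also occurs in another annotated gene, the copy on Y among them. The table has 18 protein-coding genes that GENCODE 29 places on both chromosomes, and 11 of them were at 0 in both libraries. CD99, a widely expressed surface glycoprotein gene of that region, had 1 read in each. ASMTL and PLCXD1 had more, 67 and 54 reads in the siHNRNPM library against 39 and 145. How the authors' counting treats reads that match both copies is not given in the sources used here, so no level is given for SLC25A6.

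The phosphate and ATP-Mg/phosphate carriers showed 1 called gene among 5. SLC25A3 (chromosome 12), which imports the phosphate used by ATP synthase, had 6473 reads or 495 CPM in the siHNRNPM library and 9599 reads or 483 CPM in the control library. Its log2 ratio was 0.03 (-0.01 to 0.08). SLC25A24 (chromosome 1, 108134036 to 108200849) was lower, with 79.1 CPM in the siHNRNPM library against 102 CPM in the control library and a log2 ratio of -0.37 (-0.48 to -0.26). GENCODE 29 lists further transcripts of it outside the primary assembly. Its paralogs SLC25A23 and SLC25A25 had -0.06 (-0.16 to 0.05) and 0.05 (-0.12 to 0.22). SLC25A24 lay below SLC25A23 by 0.31 (0.16 to 0.47) and below SLC25A25 by 0.42 (0.22 to 0.62) on the log2 scale. SLC25A41 gave 17 and 22 reads, with a log2 ratio of 0.23 and a wide interval of -0.77 to 1.21.

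Among the 3 carriers that resemble uncoupling proteins, SLC25A30 was lower and the other two were not called. SLC25A30 (chromosome 13, 45393316 to 45418455, minus strand) had 169 reads or 12.9 CPM in the siHNRNPM library and 420 reads or 21.1 CPM in the control library. The level was thus 61.1% of that in the control (log2 ratio -0.71, -0.98 to -0.45), the lowest ratio of the 39 measured members and at percentile 3.98 of all measured genes. SLC25A14 had 0.03 (-0.29 to 0.35) and SLC25A27, a member best known from brain, had 0.04 (-0.13 to 0.20).

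Carriers of di- and tricarboxylates and oxoacids held 3 higher genes and 0 lower among 4, a small group, where 22.0% of all measured genes were higher and 26.1% lower. Of the 3, SLC25A10 and SLC25A21 share over 20% of their 50-base words with other annotated genes, SLC25A21 33.5%. SLC25A1, which exports citrate for cytosolic acetyl-CoA, had 87.7 CPM in the siHNRNPM library against 77.9 CPM in the control library (log2 ratio 0.17, 0.06 to 0.28). The dicarboxylate carrier gene SLC25A10 had 47.5 against 39.6 CPM (0.26, 0.11 to 0.42), with 63.9% of its 50-base words shared with another annotated gene. The oxoglutarate carrier gene SLC25A11, a part of the malate-aspartate shuttle, had 58.4 against 59.0 CPM (-0.02, -0.15 to 0.12). SLC25A21 (chromosome 14, 36678431 to 37172866, minus strand), which carries 2-oxoadipate, had 52 reads or 3.97 CPM in the siHNRNPM library and 43 reads or 2.16 CPM in the control library. It was 1.84-fold higher (log2 ratio 0.88, 0.267 to 1.495), from few reads. Exons of PAX9 and of the antisense RNA SLC25A21-AS1 overlap it on the other strand. SLC25A21-AS1 gave 30 and 19 reads (1.26, 0.39 to 2.17) and PAX9 130 and 206 (-0.06, -0.39 to 0.26). SLC25A21-AS1 shares 586 of the 3703 exon bases of SLC25A21 and PAX9 shares 481, and, with the strand setting of the counting unknown, reads from those bases cannot be told apart.

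The amino acid carriers were for the most part level. The aspartate/glutamate carrier genes SLC25A12 and SLC25A13, the other arm of the malate-aspartate shuttle, had log2 ratios of 0.06 (-0.11 to 0.23) and -0.08 (-0.26 to 0.10), and the glutamate carrier gene SLC25A22 had -0.03 (-0.20 to 0.15). SLC25A15, the ornithine carrier of the urea cycle, had -0.06 (-0.27 to 0.15), SLC25A29, which carries basic amino acids, 0.04 (-0.05 to 0.13), and SLC25A44, a carrier of branched-chain amino acids, -0.11 (-0.32 to 0.09). The exception was SLC25A38 (chromosome 3, 39383324 to 39397351), the glycine carrier needed for the first step of heme synthesis. It had 645 reads or 49.3 CPM in the siHNRNPM library and 716 reads or 36.0 CPM in the control library, 1.37-fold higher (log2 ratio 0.45, 0.30 to 0.61). The acylcarnitine carrier gene SLC25A20, which brings fatty acids in for oxidation, had 9.17 against 9.76 CPM (-0.09, -0.43 to 0.25).

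The widest spread lay among the 9 measured carriers of cofactors and nucleotides, also the largest of the role groups. Of them 3 were higher, 3 were lower and 3 spanned a ratio of 1. Over all measured genes 22.0% were higher and 26.1% lower. The gene with the largest difference of the family was SLC25A26 (chromosome 3, 66133610 to 66388116, plus strand), the carrier that brings S-adenosylmethionine into the matrix for the methylation of mitochondrial RNA and proteins. It had 143 reads or 10.9 CPM in the siHNRNPM library and 28 reads or 1.41 CPM in the control library. This was a 7.76-fold higher level (5.15 to 12.1, log2 ratio 2.96, 2.36 to 3.60), at percentile 99.8 of all measured genes. Per kilobase it moved from the last place of the 39 measured members in the control library to the 33rd in the siHNRNPM library. GENCODE 29 also lists SLC25A26 transcripts outside the primary assembly. Among the 309 measured genes with such a copy, 44 (14.2%) passed the 2-fold rule in either direction, against 2.7% of the 11429 with none. SLC25A24, the other member with such a copy, did not pass it. On the opposite strand LRIG1, which encodes a transmembrane regulator of growth factor receptors, shares 907 exon bases with SLC25A26. LRIG1 had 55 reads in the siHNRNPM library and 180 in the control library, lower with a log2 ratio of -1.11 (-1.57 to -0.66). The part of the second copy and of the overlap in the value for SLC25A26 was not tested.

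The pyrimidine nucleotide carriers differed from each other. SLC25A33 (chromosome 1, 9539482 to 9585179), a carrier of pyrimidine nucleotides, had 298 reads or 22.8 CPM in the siHNRNPM library and 308 reads or 15.5 CPM in the control library. It was 1.47-fold higher (log2 ratio 0.56, 0.32 to 0.79). Of its 50-base words, 21.6% also occur in other annotated genes. SLC25A36, the paralog of SLC25A33, was lower, with 5107 reads or 390 CPM against 9324 reads or 469 CPM (-0.27, -0.31 to -0.22). The 2 pyrimidine nucleotide carriers thus differed by 0.82 on the log2 scale (0.58 to 1.06), although SLC25A36 remained far above SLC25A33 in both libraries.

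The folate carrier gene was lower. SLC25A32 (chromosome 8, 103398635 to 103415189, minus strand), which carries folate and is linked to flavin supply, had 671 reads or 51.3 CPM in the siHNRNPM library and 1547 reads or 77.8 CPM in the control library. The level was 65.9% of that in the control (log2 ratio -0.60, -0.73 to -0.47), at percentile 5.59 of all measured genes. SLC25A32 shares 2547 of its 3654 exon bases with an annotated gene on the same strand. Of its 50-base words, 97.5% also occur in other annotated genes. DCAF13, which overlaps it on the other strand, had -0.04 (-0.13 to 0.05). The peroxisomal carrier gene SLC25A17 was lower by less, with 20.9 against 25.3 CPM (-0.28, -0.50 to -0.06), a call lost with the control library thinned. SLC25A16 (-0.16, -0.40 to 0.07) and SLC25A42 (0.23, -0.08 to 0.54), both linked to coenzyme A, and the NAD carrier gene SLC25A51 (0.16, -0.07 to 0.40) were not called.

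Of the 4 measured iron and glutathione carriers, 1 was higher, 2 were lower and 1 spanned a ratio of 1. All 4 had an absolute log2 ratio under 0.5. The shares over all measured genes were 22.0% higher and 26.1% lower. The mitoferrin genes SLC25A37 and SLC25A28, whose products import iron, were both lower, with 89.8 against 102 CPM (-0.18, -0.29 to -0.08) and 21.3 against 25.1 CPM (-0.24, -0.45 to -0.02). The call of SLC25A28 was lost with upper-quartile scaling and with the control library thinned. The glutathione carrier gene SLC25A39 had 3043 reads or 233 CPM in the siHNRNPM library and 4239 reads or 213 CPM in the control library, 1.09-fold higher (0.13, 0.06 to 0.19). Its paralog SLC25A40 had -0.06 (-0.22 to 0.10). Of the 4 measured members with less settled roles, SLC25A45 was 1.42-fold higher from 84 and 90 reads (6.42 against 4.53 CPM, log2 ratio 0.50, 0.06 to 0.95). SLC25A46, which acts in mitochondrial fission and lipid transfer, was at 91.0% of the control level (-0.14, -0.25 to -0.02), and its call was lost with upper-quartile scaling. SLC25A35, at 99.9% of the control level, and SLC25A43, at 88.4%, were not called.

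**Figure D2:**
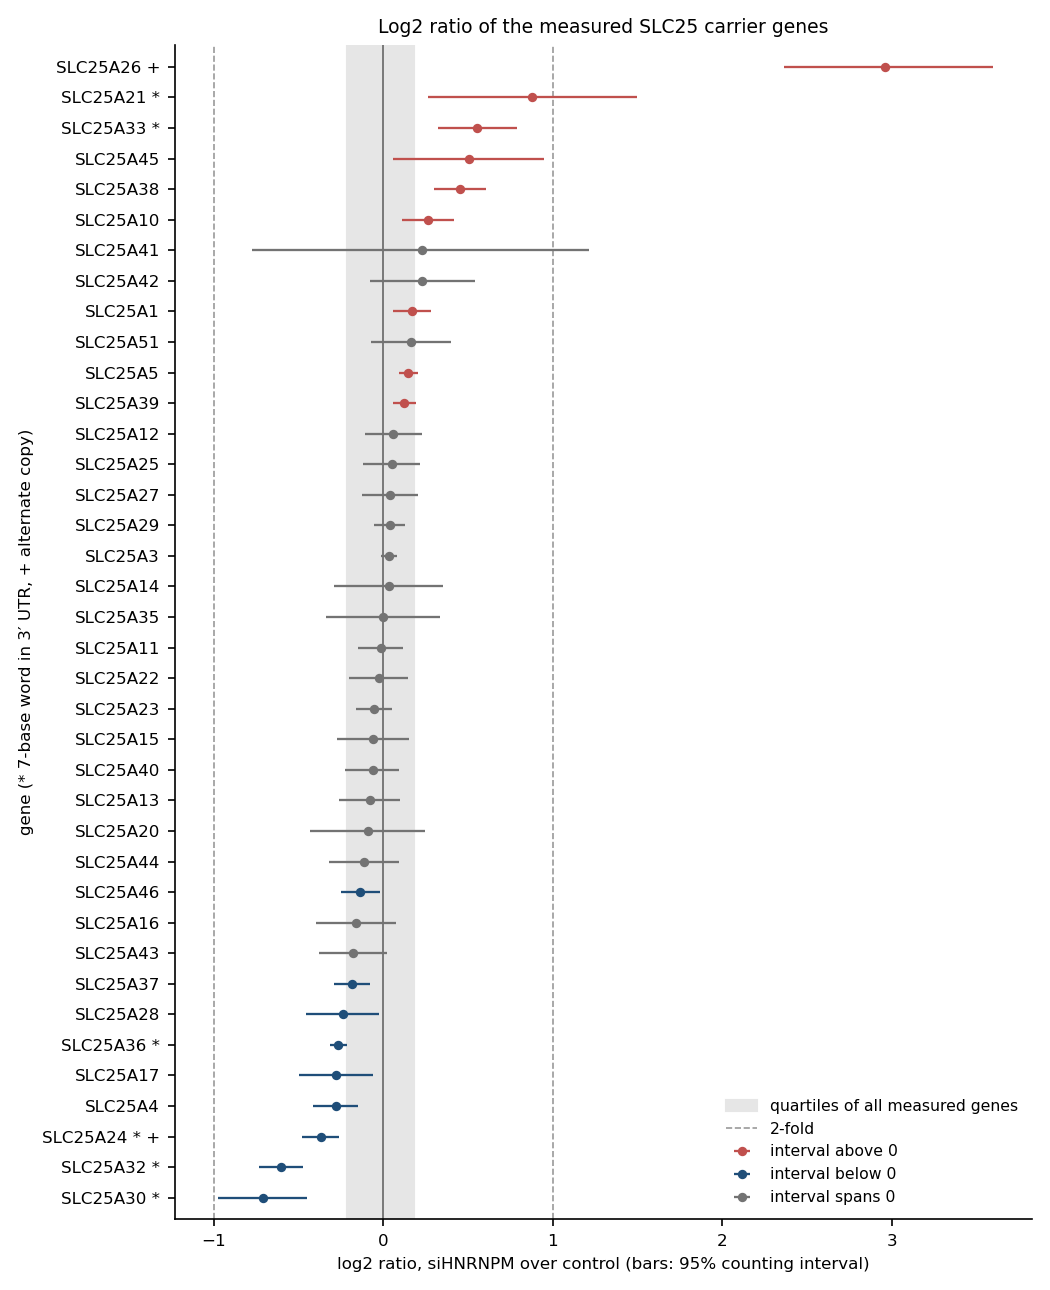
Log2 ratios (siHNRNPM over control) of 38 of the measured SLC25 genes, in order, with bars for the 95% counting interval, grey shading for the quartiles of all measured genes (-0.21 and 0.18) and dashed lines at 2-fold. A star marks GTGAGAA in the 3′ UTR and a plus a copy on an alternate sequence; only SLC25A26 lies beyond 2-fold, and each of the 6 starred genes has an interval that excludes 0.

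The remaining 9 members were below the filter. SLC25A34, SLC25A47 and SLC25A6 had 0 reads in both libraries. SLC25A2, an ornithine carrier gene, had 0 reads in the siHNRNPM library and 4 in the control library, SLC25A18, a glutamate carrier gene, 3 and 0, SLC25A48 0 and 1, SLC25A52 1 and 0, and SLC25A53 9 and 9. A count of 0 allows up to 3 reads, or 0.229 CPM for siHNRNPM and 0.151 CPM for the control. No fold is given for these genes, since all of them, SLC25A53 included, were below the filter.

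Over 8 pairs of paralogs, the difference between the log2 ratios of the 2 genes had an interval that excluded 0 for 5. These were the pairs of SLC25A5 with SLC25A4, of SLC25A33 with SLC25A36, of SLC25A24 with SLC25A23 and with SLC25A25, and of SLC25A39 with SLC25A40, the last by 0.19 (0.02 to 0.36). For SLC25A12 and SLC25A13 the difference was 0.14 (-0.11 to 0.39), for SLC25A28 and SLC25A37 it was -0.05 (-0.30 to 0.19), and for SLC25A23 and SLC25A25 it was -0.11 (-0.31 to 0.09). These intervals too cover counting error only, from 1 library per group, and an interval that spans 0 does not show a pair to be alike. The pairs are not independent, since SLC25A23, SLC25A24 and SLC25A25 were each paired with one another, and SLC25A24 is in 2 of the 5. How often pairs of other measured genes differ in this way was not computed, so 5 of 8 has no background beside it.

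The 7-base sequence GTGAGAA was searched in the longest annotated 3′ UTR of each gene, on the transcript strand, because an earlier analysis of these same libraries had picked it out, so it is not independent of them. Measured protein-coding genes with it had a median log2 ratio of -0.13 and those without it -0.01. It occurred in 7 of the 39 measured members (17.9%) and in 1775 of 10800 measured protein-coding genes with a 3′ UTR (16.4%). The stretches around it, read from GENCODE 29 transcripts on GRCh38, show where the members that are lower and those that are higher carry the same bases (capitals). SLC25A30 holds it at chr13:45395341-45395365 and chr13:45394584-45394608, SLC25A24 at chr1:108139067-108139091 and SLC25A21 at chr14:36680449-36680473, all on the minus strand. SLC25A36 holds it at chr3:140980253-140980277 and SLC25A33 at chr1:9582860-9582884, on the plus strand.
SLC25A30, first: ttgacatttGTGAGAAattgttaca
SLC25A30, second: aagatgactGTGAGAAccccaagaa
SLC25A24: ttggctttgGTGAGAActcgcatgc
SLC25A36: aatacagagGTGAGAActtgttaga
SLC25A33: aatgataaaGTGAGAAtacaacttg
SLC25A21: aataaaactGTGAGAAgaaaaaaat

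All 7 members with the sequence were called, 4 lower (SLC25A30, SLC25A32, SLC25A24 and SLC25A36) and 3 higher, SLC25A33 and SLC25A21 among them. Of all measured protein-coding genes with GTGAGAA, 45.3% were lower and 12.8% higher. Of the 4 lowest ratios of the family, 3 belonged to genes with the sequence, and the lowest of all, SLC25A30, was the 1 measured member with 2 copies. Genes with the sequence also stood near the other end. Counted from the lowest ratio, SLC25A33 and SLC25A21 held places 37 and 38 of the 39 measured members. A link of the sequence, or of its number of copies, with the ratio was not tested. The members with the sequence had ratios from -0.71 to 0.88 and a median of -0.27, against a median of 0.02 for the 32 without it. Among those 32, 7 were higher (21.9%) and 5 lower (15.6%). For measured protein-coding genes with a 3′ UTR that lacks the sequence, the shares were 23.4% and 25.6%. A match describes these letters in these windows and says nothing of which factor binds there.

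**Figure D3:**
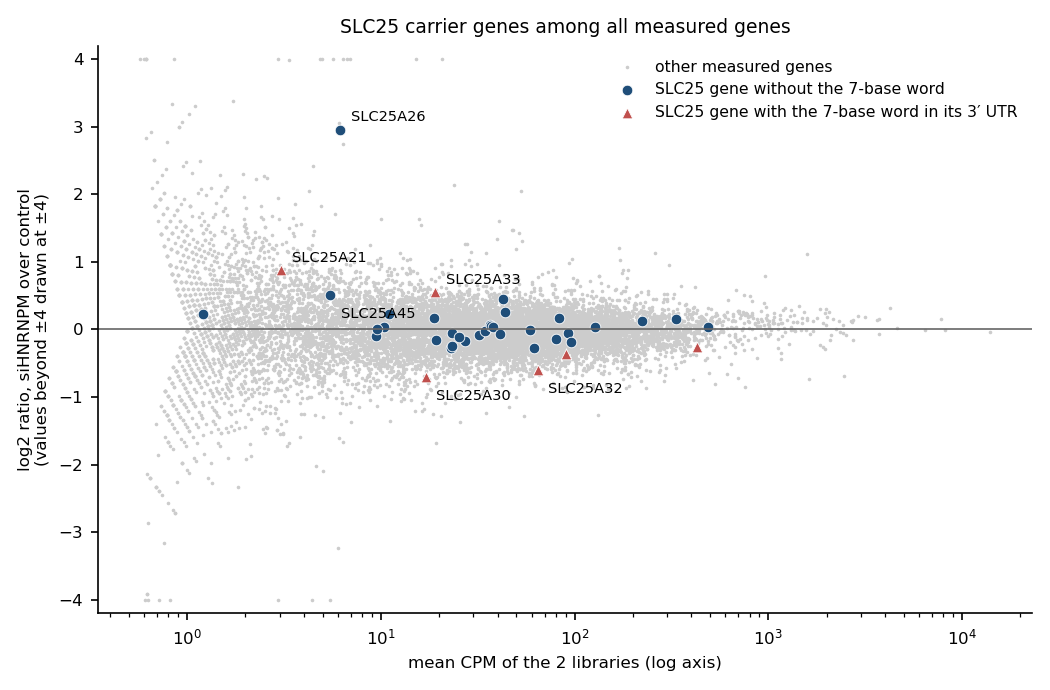
Log2 ratio against mean CPM (log axis) for all 12925 measured genes (grey) and 38 of the measured SLC25 genes, drawn as triangles where the 3′ UTR holds GTGAGAA and as circles where it does not, with values beyond 4 in either direction drawn at 4 or -4. SLC25A26, at 2.96, stands well above the other members, and triangles are found both above 0 (SLC25A33, SLC25A21) and below it (SLC25A30, SLC25A32).

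Genes linked to the carriers were taken from lists by function and set beside the same background of 22.0% higher and 26.1% lower, or 25.4% and 34.5% for genes with 1000 or more reads. The lists were chosen with earlier results of these data known, so their shares are not independent of these data. Carriers reach the inner membrane through the TOM receptors, the small TIM chaperones and the TIM22 complex. Of 12 measured genes of this route, 4 were higher, 1 was lower and 7 spanned a ratio of 1, with a median log2 ratio of 0.08. TOMM22, the central receptor of the outer membrane, had 994 reads or 76.0 CPM in the siHNRNPM library and 609 reads or 30.6 CPM in the control library (log2 ratio 1.31, 1.16 to 1.46). The chaperone genes TIMM8B and TIMM13 had 0.44 (0.20 to 0.68) and 0.38 (0.21 to 0.55), and C19orf52, now named TIMM29, had 0.48 (0.16 to 0.80). TIMM22, the channel of the route, was listed at 0 reads in both libraries and, like SLC25A26, has a copy on an alternate sequence.

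Carriers of the same fold under other symbols were few, with 2 lower and 1 higher among 3 measured genes. All 3 had 1000 or more reads, a depth at which 34.5% of all measured genes were lower and 25.4% higher. A list of 3 is too small to be told apart from those shares. The uncoupling protein gene UCP2 had 330 reads or 25.2 CPM in the siHNRNPM library and 753 reads or 37.9 CPM in the control library (-0.59, -0.78 to -0.40). MTCH1 had -0.29 (-0.40 to -0.17) and MTCH2, which inserts proteins into the outer membrane and has an alternate copy, 0.12 (0.03 to 0.21). UCP1 had 0 reads in both libraries and UCP3 5 and 6. Of 19 other measured mitochondrial membrane transporters, 3 were higher, 4 were lower and 12 spanned a ratio of 1 (median -0.07). The serine transporter gene SFXN1 had -0.53 (-0.63 to -0.43), the magnesium channel gene MRS2 -0.35 (-0.48 to -0.23), the calcium uniporter gene MCU -0.29 (-0.43 to -0.15) and LETM1 0.26 (0.14 to 0.38). SMDT1, a subunit of the uniporter, was listed at 0 in both libraries and also has an alternate copy.

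Enzymes that use what the carriers move were described in the same way. Of 17 measured malate-aspartate and citrate enzymes, 2 were higher, 9 were lower and 6 spanned a ratio of 1 (median -0.14). With 1000 or more reads were 16 of the 17, the 9 lower genes among them. The cytosolic aconitase gene ACO1 had -0.45 (-0.56 to -0.34), the aspartate aminotransferase genes GOT1 and GOT2 -0.41 (-0.60 to -0.23) and -0.32 (-0.39 to -0.25), and the glutamate dehydrogenase gene GLUD1 -0.34 (-0.42 to -0.26). Of the malate-aspartate shuttle itself, beside GOT1 and GOT2, the malate dehydrogenase gene MDH1 had -0.10 (-0.18 to -0.02) and MDH2 0.13 (0.06 to 0.21). MDH1 and MDH2 are outside the rule for named genes and were chosen after their values were seen. The carriers of that shuttle, SLC25A11, SLC25A12 and SLC25A13, were not called. Of 10 carnitine shuttle and fatty acid oxidation genes, 1 was higher and 4 lower (median -0.04), with CROT at -0.47 (-0.79 to -0.16), ACADM at -0.32 (-0.45 to -0.19), CPT1A at -0.13 (-0.25 to -0.02) and ACADVL at 0.13 (0.08 to 0.18).

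Folate one-carbon and S-adenosylmethionine enzymes were mostly on the higher side, with 7 of 10 measured genes higher, 1 lower and a median of 0.23. The background was 22.0% higher and 26.1% lower, and this list too was chosen with earlier results known. Of the 8 with 1000 or more reads, 5 were higher and 1 lower. MTHFD2L, a mitochondrial folate dehydrogenase gene, had 0.55 (0.20 to 0.90), MAT2A, which makes S-adenosylmethionine, 0.43 (0.33 to 0.54), the mitochondrial formyltransferase gene MTFMT 0.34 (0.15 to 0.53) and MTHFD1L 0.28 (0.16 to 0.39). Beside them the folate carrier gene SLC25A32 was lower and the S-adenosylmethionine carrier gene SLC25A26 higher, with the limits already given for both. Of 11 NAD and nucleotide enzymes, 1 was higher and 5 lower (median -0.04), with NADK2 at -0.52 (-0.69 to -0.35), CMPK2 at -0.50 (-0.98 to -0.03) and DGUOK at 0.41 (0.26 to 0.55). Of 14 genes of iron-sulfur, heme and glutathione synthesis, 3 were higher and 5 lower (median -0.04). The protoporphyrinogen oxidase gene PPOX had 0.53 (0.33 to 0.73), the glutamate-cysteine ligase gene GCLC -0.34 (-0.50 to -0.18), ABCB6 -0.27 (-0.40 to -0.15) and NFS1 0.23 (0.08 to 0.37). ALAS1, the enzyme that uses the glycine carried by SLC25A38, had -0.21 (-0.31 to -0.11), outside the rule for named genes and chosen after its value was seen.

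**Figure D4:**
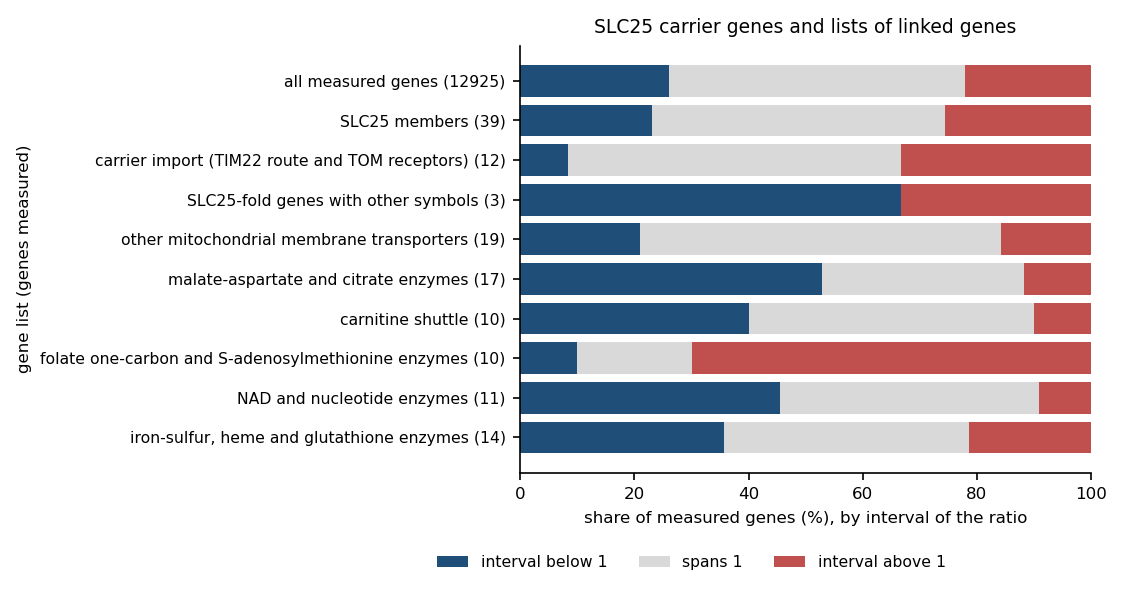
Share of measured genes (%, stacked to 100) whose counting interval lay below a ratio of 1, spanned it or lay above it, for all 12925 measured genes, the 39 SLC25 members and 8 lists of linked genes, with the number measured in brackets. The SLC25 bar (23.1% lower, 25.6% higher) resembles that of all genes, while the one-carbon list has 7 of 10 higher and the malate-aspartate and citrate list 9 of 17 lower. The lists were chosen with earlier results of these data known.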

How the data were processed

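RNA-seq was made from 1 control and 1 siHNRNPM library of RKO cells, grouped by the treatment labels. The values deposited by the authors are whole-number read counts per gene symbol, not normalized. HISAT2 2.0.4 and GRCh38 are named, with no role stated, per the submitters' processing notes; the counter, annotation and strand setting are not given in the sources used here. Counts were scaled with TMM (edgeR 4.0.16, R 4.3.3) and given as CPM, keeping genes that reached a CPM of 1 in either library. A count of 0 was set to 0.5 in log2 ratios. Intervals are exact Clopper-Pearson intervals (SciPy 1.17.1); PCR copies are not independent molecules, so they cover counting error only. Differences between paralogs are log2 odds ratios with exact conditional intervals. No test over samples or gene sets was made. The interval was checked on simulated data.

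Positions, transcript lengths, 3′ UTRs, 50-base words and copies outside the primary assembly came from GENCODE 29, which named 11738 of the 12925 measured genes. Members with an absolute log2 ratio of 0.5 or more and an interval excluding 1, the ADP/ATP carriers and the 3 members highest per kilobase were described in full, and up to 4 genes of each linked list with the largest called ratio were named; 1 member and 1 linked gene are counted but not reported here by name. The members, role groups and lists were chosen with earlier results of these data known. Alternatives were 3 other scalings (total counts, upper quartile and DESeq2 1.42.0 size factors), other CPM filters, a thinned control library and leaving out groups of genes.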

Additional observations from a re-analysis of the deposited data

How the results depend on the processing

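No paired analysis was possible because each group has 1 library, and no replicate could be left out. Total-count, DESeq2 and upper-quartile scaling, no CPM filter, a CPM of 5 or more, and the control library thinned to the siHNRNPM total gave 9 to 11 higher and 7 to 9 lower members, 1 at least 2-fold higher and 0 at least 2-fold lower, with medians from -0.02 to 0.03. Without genes with an alternate or patch copy, 0 members were at least 2-fold higher, because SLC25A26 was then left out. In alternatives chosen after seeing the data, 7 members were higher and 5 lower of 32 without genes that hold GTGAGAA, where all genes gave 23.5% and 23.1%. Without the members that share over 20% of their 50-base words with other genes, 6 were higher and 8 lower of 33. All genes gave 22.0% and 26.1% there, with only those members left out, since other genes were not screened for shared words. No called member changed direction under these settings. With upper-quartile scaling SLC25A3 became higher (0.07, 0.02 to 0.11), and SLC25A28 (-0.21) and SLC25A46 (-0.10) were no longer called. With thinning, SLC25A17 (-0.19) and SLC25A28 (-0.23) were no longer called. Variation between cultures was not measured.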

Other observations

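The table also holds 41 rows for SLC25A pseudogenes. They had 9 reads in the siHNRNPM library, in 4 rows, and 4 reads in the control library, in 1 row. SLC25A14P1 gave 4 and 0 reads, SLC25A5P1 1 and 4, and SLC25A3P2 and SLC25A5P5 2 and 0 each, beside 4594 and 6298 reads for SLC25A5. Of the 1225 words of 50 bases in the SLC25A5 transcript, 18.8% also occur in other annotated genes, its pseudogenes among them. How reads that match both were assigned is not given in the sources used here.

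Antisense partners of other members were low. SLC25A25-AS1 had 40 reads in the siHNRNPM library and 81 in the control library (log2 ratio -0.41, -0.999 to 0.149), beside 0.05 for SLC25A25, and SLC25A5-AS1 had 6 and 10. RANGRF, which shares a part of the SLC25A35 exons on the other strand, had 239 and 261 reads (0.48, 0.22 to 0.74), while SLC25A35 stood at 99.9% of its control level. METAP1D, whose exons overlap SLC25A12, had 81 and 85 reads (0.53, 0.08 to 0.99).

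The transhydrogenase gene NNT, which links the NADH and NADPH pools of the inner membrane, had 1 read in each library. These genes were chosen after their values were seen.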
